A study of Mus musculus with 16 samples.

Results

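The levels of 10 genes were followed in bulk RNA sequencing of naïve CD4+ T cells (Tn) and of CD4+ T cells after 2 days of culture in Treg conditions (Treg), in WT and Aim2-/- mice. Of these genes, 9 (Rab4a, Slc41a3, Aldh1l1, Wdfy1, Efcab7, Fam20c, 5830416I19Rik, 4930532G15Rik and Gm16867) were chosen because they lie away from Aim2 and differed between the genotypes in one or both states of these same libraries. The remaining gene, Nnt, was added because it is deleted in one C57BL/6 substrain. They are 10 of the 53090 genes in the deposited tables. Each of the 4 groups had 4 libraries, which makes 16 libraries. WT Tn and Aim2-/- Tn were splenic cells taken without culture. WT Treg and Aim2-/- Treg were CD4+ T cells of the same genotypes kept for 48 h with anti-CD3/CD28 antibodies, TGF-beta and IL-2. AIM2, the product of Aim2, is a cytosolic sensor of double-stranded DNA, and the study asked what its loss does to CD4+ T cells. Per the study's methods, both genotypes are on the C57BL/6 background, came from a commercial supplier and were bred in-house, with animals matched for sex and age. It is not given in the sources used here whether the WT mice were littermates of the Aim2-/- mice, which C57BL/6 substrain each line derives from, or whether each library is 1 mouse. The p-values below therefore measure the spread between libraries, and genotype and mouse line cannot be told apart.

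Inbred mouse colonies kept apart accumulate fixed differences in sequence and in gene copies, so that substrains of C57BL/6 are alike in most genes and differ in a few. A knockout line also keeps a stretch of the donor genome around its target, and it can keep other stretches elsewhere. Such differences can change the RNA level of a gene whatever the targeted gene does. The best known case is Nnt, the mitochondrial transhydrogenase that makes NADPH from NADH, of which C57BL/6J lacks several internal exons.

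Levels are given as CPM, counts scaled to the same library size. The targeted gene was lower in every Aim2-/- library. Aim2 was at 37.9, 36.9, 32.3 and 33.2 CPM in WT Tn and at 9.26, 6.77, 6.61 and 6.99 CPM in Aim2-/- Tn. In Treg cells it was at 35.6, 40.8, 43.3 and 39.9 CPM in WT and at 10.8, 9.95, 8.86 and 7.17 CPM in Aim2-/-. The libraries held 22516424 to 34533316 counts each, so that 3 counts, taken as the floor of measurement, stood for 0.0869 to 0.133 CPM. T cell markers (Cd3e, Cd3d, Cd3g, Trac and Cd4) summed to 2602 to 3359 CPM in the Tn libraries and to 1117 to 1248 CPM in the Treg libraries, and all 5 were present. The markers of cultured Treg cells (Il2ra, Foxp3 and Mki67) summed to 9.15 to 18.7 CPM in Tn and to 2753 to 3578 CPM in Treg libraries. Markers of naïve T cells (Ccr7, Lef1 and Tcf7) summed to 2446 to 3931 CPM in Tn and to 622 to 899 CPM in Treg libraries. Markers of CD8 T and NK cells summed to 12.7 to 26.6 CPM in Tn and to 4.05 to 5.21 CPM in Treg libraries, and B cell, myeloid and erythroid markers each summed to at most 8.55 CPM in any library. Of these, the 5 erythroid markers stood apart between genotypes in Tn, at 1.23 to 3.97 CPM in WT and 5.13 to 7.94 CPM in Aim2-/-, with Alas2 at or under the floor in WT Tn. Their part in the Tn values below was not tested. In Treg libraries their sum was 0.0604 to 0.185 CPM in WT and 0.0337 to 0.108 CPM in Aim2-/-. In bulk RNA, fewer cells of a type and less RNA per cell cannot be told apart.

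On GRCm38, the build of the deposited tables, 8 of the 10 genes lie on chromosomes other than that of Aim2 (chr1:173350879-173466040). Rab4a (ENSMUSG00000019478.16) is at chr8:123805985-123835287 on the plus strand. Aldh1l1 (ENSMUSG00000030088.15, chr6:90486427-90600203) and Slc41a3 (ENSMUSG00000030089.15, chr6:90604725-90646412) are neighbours on the plus strand, with 4522 bp between the end of one and the start of the other, so they are not separate loci. Efcab7 (ENSMUSG00000073791.11) is at chr4:99829198-99912788 and Fam20c (ENSMUSG00000025854.15) is at chr5:138754514-138810077, both on the plus strand. Nnt (ENSMUSG00000025453.16) is at chr13:119335448-119408997 on the minus strand. The lincRNA 5830416I19Rik (ENSMUSG00000106219.1) is at chr5:64044978-64050228 on the plus strand. Gm16867 (ENSMUSG00000093954.8), annotated as protein coding with no name for its function, is at chr14:69363504-69503362 on the minus strand and overlaps 6 other annotated genes, among them Entpd4 on the other strand. Wdfy1 (ENSMUSG00000073643.11, chr1:79702262-79776143, minus strand) and the lincRNA 4930532G15Rik (ENSMUSG00000097261.2, chr1:185359461-185362865, minus strand) are on the chromosome of Aim2. They lie 93.6 Mb and 11.9 Mb from it. The working description of the genes as unlinked to Aim2 therefore does not hold for 4930532G15Rik by position, and holds for Wdfy1 by distance only. The deposited counts of Nnt were fractional in 16 of 16 libraries and those of Gm16867 in 9, so reads were shared with other genes and both levels are uncertain.

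Promoters of RefSeq on GRCm38.p6 (250 bases before to 50 bases after the annotated start) matched 5 of the 10 genes. Those of Aldh1l1, Slc41a3, Fam20c and 5830416I19Rik are shown because the first pair are neighbours that moved together, and because the other two genes were close to the floor in some groups and well above it in others. For Aldh1l1 the RefSeq start is inside the longer GENCODE gene, as it is for Slc41a3. Capitals mark 2 motifs, searched on both strands without overlap between them. One is the GC box, whose letters are GGGCGG on either strand. The other is the CCAAT box, spelled by its name and read on the opposite strand as ATTGG. Searched for in the same way were 3 further motifs. The letters of the TATA box were TATAAA. Those of the AP-1 motif were TGANTCA, and those of the forkhead motif were GTAAACA. None of these last 3 was found in the 4 windows, which says only that these letters are not there. The 4 windows follow in the direction of transcription.
Aldh1l1, chr6:90550543-90550842, plus strand: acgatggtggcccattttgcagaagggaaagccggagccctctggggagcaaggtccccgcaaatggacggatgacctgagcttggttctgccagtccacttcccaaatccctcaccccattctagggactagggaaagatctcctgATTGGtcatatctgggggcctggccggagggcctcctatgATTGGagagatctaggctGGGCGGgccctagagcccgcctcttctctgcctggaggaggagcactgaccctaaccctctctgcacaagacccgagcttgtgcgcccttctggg
Slc41a3, chr6:90618996-90619295, plus strand: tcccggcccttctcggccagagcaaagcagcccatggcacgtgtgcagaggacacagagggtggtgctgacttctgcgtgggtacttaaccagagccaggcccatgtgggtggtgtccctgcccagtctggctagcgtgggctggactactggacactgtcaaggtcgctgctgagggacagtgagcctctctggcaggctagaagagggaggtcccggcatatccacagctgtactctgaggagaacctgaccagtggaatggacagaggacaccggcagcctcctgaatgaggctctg
Fam20c, chr5:138754831-138755130, plus strand: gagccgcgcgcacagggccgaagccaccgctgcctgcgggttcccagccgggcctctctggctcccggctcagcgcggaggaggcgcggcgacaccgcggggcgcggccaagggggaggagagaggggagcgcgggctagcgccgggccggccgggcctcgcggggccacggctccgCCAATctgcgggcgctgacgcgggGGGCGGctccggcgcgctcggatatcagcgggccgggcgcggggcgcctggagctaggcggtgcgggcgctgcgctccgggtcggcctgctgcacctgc
5830416I19Rik, chr5:64044723-64045022, plus strand: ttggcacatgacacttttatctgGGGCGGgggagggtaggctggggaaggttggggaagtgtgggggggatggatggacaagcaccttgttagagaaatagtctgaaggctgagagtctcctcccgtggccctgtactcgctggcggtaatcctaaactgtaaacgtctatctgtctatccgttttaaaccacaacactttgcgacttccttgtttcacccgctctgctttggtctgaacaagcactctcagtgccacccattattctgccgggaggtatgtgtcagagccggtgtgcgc

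The neighbours Aldh1l1 and Slc41a3 had unlike windows. The Aldh1l1 window held 1 GC box and 2 CCAAT boxes, and the Slc41a3 window held neither. Over all 32851 RefSeq windows of this length, 35.7% held a GC box and 37.4% a CCAAT box, so either motif is common. Fam20c had 47 CG dinucleotides and 80.7% G and C in its window, against medians of 7 CG dinucleotides and 52.7% over all windows. The windows of Aldh1l1, Slc41a3 and 5830416I19Rik had 9, 8 and 11 CG dinucleotides. These are descriptions of the reference sequence, which is that of C57BL/6J, and not of the mice sequenced.

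Rab4a, a small GTPase that returns endocytosed receptors from early endosomes to the cell surface, was the gene with the most abundant RNA per kilobase of exon among the 10 in WT Tn cells, at 8.96 CPM per kb. It was at 18.0, 19.3, 13.3 and 12.4 CPM in WT Tn and at 1.65, 1.80, 1.99 and 2.36 CPM in Aim2-/- Tn. All WT Tn libraries were above all Aim2-/- Tn libraries, with a ratio of the means of 8.07. In Treg cells Rab4a was at 5.02, 4.86, 4.23 and 4.63 CPM in WT and at 0.830, 0.431, 0.438 and 0.297 CPM in Aim2-/-, a ratio of 9.39. The order of the group means was WT Tn, WT Treg, Aim2-/- Tn and Aim2-/- Treg, and no neighbouring groups in this order overlapped. In WT Tn, replicates 1 and 2 were above replicates 3 and 4, and the WT Tn libraries paired in this way across genes too. Within replicates 1 and 2 the log2 fold change of Aim2-/- against WT in Tn was -3.41 (SE 0.16), and within replicates 3 and 4 it was -2.57 (SE 0.19).

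Slc41a3, a transporter of the SLC41 family of magnesium carriers, and Aldh1l1, the cytosolic enzyme that oxidizes 10-formyltetrahydrofolate with production of NADPH, were both higher in Aim2-/- libraries. Slc41a3 was at 9.84, 7.91, 11.2 and 9.24 CPM in WT Tn and at 25.7, 28.1, 31.2 and 27.2 CPM in Aim2-/- Tn. In Treg it was at 1.92, 1.65, 1.93 and 1.52 CPM in WT and at 7.73, 6.86, 4.45 and 3.86 CPM in Aim2-/-. The Aim2-/- mean was 2.94 times that of WT in Tn and 3.26 times in Treg, and the libraries of the genotypes did not overlap in either state. Aldh1l1 was at 3.45, 4.78, 4.52 and 3.58 CPM in WT Tn and at 11.2, 11.3, 14.5 and 13.1 CPM in Aim2-/- Tn. After culture it was at 0.573, 0.231, 0.272 and 0.185 CPM in WT and at 2.53, 1.98, 1.85 and 1.26 CPM in Aim2-/-. The Aim2-/- mean was 3.07 times that of WT in Tn and 6.04 times in Treg, again without overlap. Both genes had the same order of groups, from Aim2-/- Tn through WT Tn and Aim2-/- Treg to WT Treg, with every neighbouring pair of groups apart. Per kilobase of exon, Slc41a3 was the more abundant of the pair in each group, at 3.28 CPM per kb in WT Tn against 0.904 for Aldh1l1.

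Wdfy1, an endosomal protein that recruits an adaptor to Toll-like receptors, and Efcab7, an EF-hand protein known at the base of the primary cilium, differed between genotypes mainly in the cultured cells. Wdfy1 was at 12.2, 11.2, 14.1 and 14.8 CPM in WT Tn and at 8.88, 10.7, 10.4 and 9.49 CPM in Aim2-/- Tn. In Treg the values were 14.7, 17.3, 14.8 and 16.5 CPM in WT and at 5.62, 5.64, 3.91 and 5.57 CPM in Aim2-/-. The libraries did not overlap in either state, and the WT mean was 1.33 times the Aim2-/- mean in Tn and 3.05 times in Treg. Efcab7 was at 1.87, 2.33, 2.24 and 1.84 CPM in WT Tn and at 1.72, 1.57, 2.21 and 1.35 CPM in Aim2-/- Tn, and these groups overlapped. After culture Efcab7 was at 5.43, 5.99, 5.77 and 6.19 CPM in WT and at 1.96, 1.33, 1.95 and 1.93 CPM in Aim2-/-, which did not overlap, with a WT mean 3.26 times that of Aim2-/-. Efcab7 was thus close to one level in 3 of the groups, and the WT Treg libraries stood above them.

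Fam20c, the Golgi kinase that phosphorylates secreted proteins, was measured above the floor only in cultured cells. It had 2 counts over the 4 WT Tn libraries and 1 count over the 4 Aim2-/- Tn libraries. In WT Treg it was at 2.12, 2.49, 2.26 and 3.52 CPM. In Aim2-/- Treg it was at 0, 0.0718, 0.269 and 0.223 CPM. These groups did not overlap, and the summed 319 counts of WT Treg against 16 of Aim2-/- Treg gave a ratio of 18.1 (95% exact interval 11.0 to 32.1, counting error only).

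The 2 lincRNAs went opposite ways in Tn cells. The RNA of 5830416I19Rik was at 3.93, 4.69, 3.94 and 4.17 CPM in Aim2-/- Tn and at 0.0691, 0.0395, 0.0845 and 0.102 CPM in WT Tn. In Treg cells it was at 0.604, 0.359, 0.707 and 0.632 CPM in Aim2-/- and at 0, 0.0868, 0.151 and 0 CPM in WT. Genotypes did not overlap in either state. The summed counts gave a ratio of Aim2-/- to WT of 56.0 in Tn (486 against 8 counts, 95% exact interval 28.2 to 131) and of 8.80 in Treg (64 against 8 counts, interval 4.21 to 21.3). The RNA of 4930532G15Rik was at 0.967, 1.98, 1.77 and 2.28 CPM in WT Tn and at 0.0375, 0, 0.150 and 0.0656 CPM in Aim2-/- Tn. WT was thus above Aim2-/- in every Tn library, with a ratio of 29.0 (187 against 7 counts, interval 13.8 to 73.0). In cultured cells it had 6 counts over the WT libraries and 0 over the Aim2-/- libraries, too few for a comparison.

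Gm16867 was close to 0 in WT libraries and above the floor in 7 of the 8 Aim2-/- libraries, at levels that varied between libraries of one group. It was at 0, 0, 0 and 0.136 CPM in WT Tn and at 4.23, 3.62, 0.0751 and 3.51 CPM in Aim2-/- Tn. Replicate 3 of Aim2-/- Tn was at the level of the WT libraries, and the groups overlapped through it. In Treg cells Gm16867 was at 0.0337, 0, 0 and 0 CPM in WT and at 7.02, 9.41, 10.7 and 2.34 CPM in Aim2-/-. Replicate 4 was the lowest of the Aim2-/- Treg libraries. The counts were 337 in Aim2-/- Tn against 4 in WT Tn (ratio 77.7, 95% exact interval 30.1 to 287), and 828 in Aim2-/- Treg against 1 in WT Treg (ratio 911, interval 163 to 36016). These intervals cover counting error and leave out the spread between libraries.

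**Figure D1:**
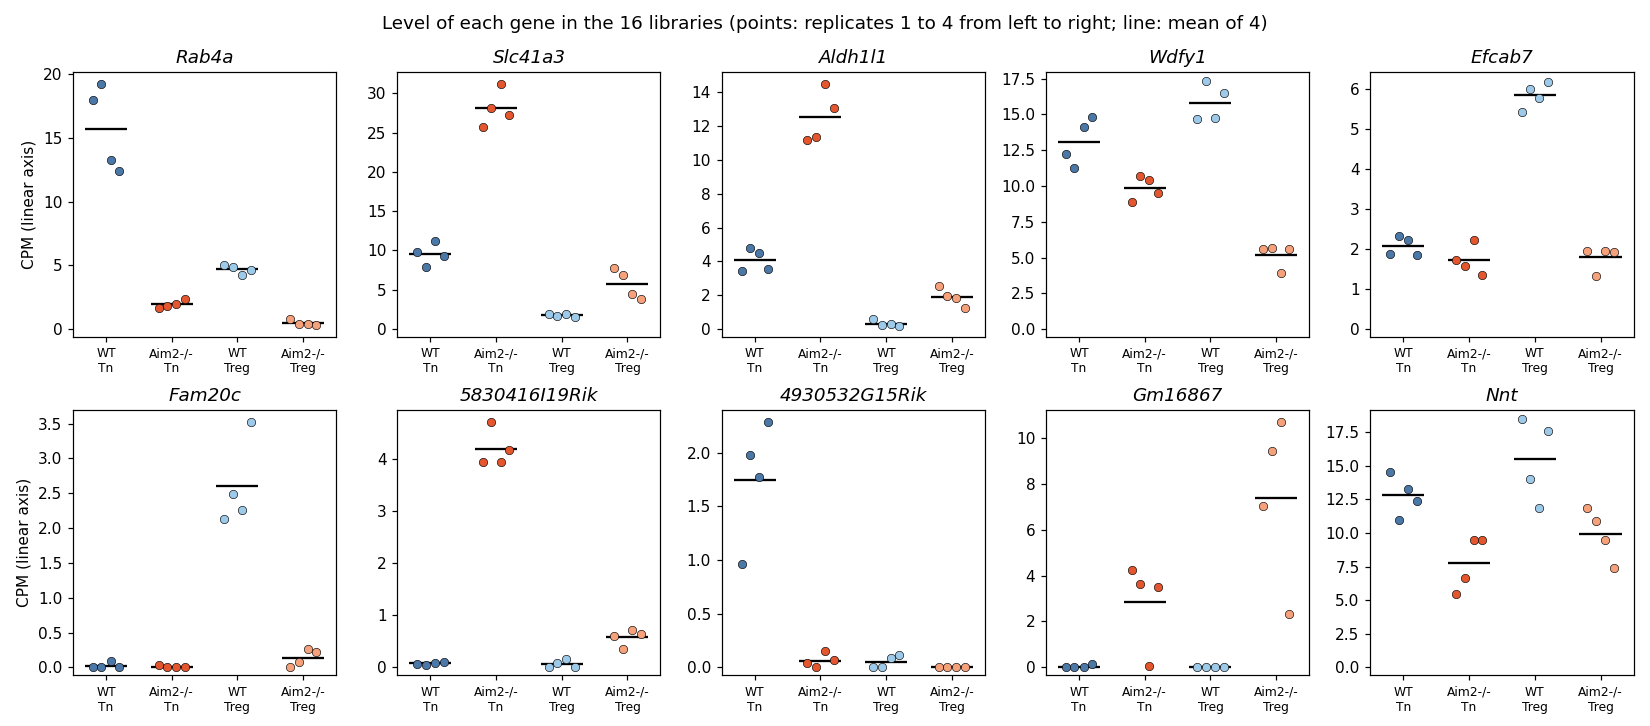
Level in CPM (linear axes) of each of the 10 genes in the 16 libraries, with 1 panel for each gene, 4 points for each group (replicates 1 to 4 from left to right) and a line at the mean. Rab4a, Slc41a3, Aldh1l1, Wdfy1 and 5830416I19Rik part the genotypes in both states, and Efcab7 and Fam20c stand apart only in WT Treg. For Gm16867, replicate 3 of Aim2-/- Tn lies with the WT libraries.

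Of the 10 genes, 8 passed the filter on low counts in Tn and 9 in Treg. Genotypes were compared with edgeR across the whole table, with Benjamini-Hochberg adjustment, and 5 of the 8 passed an adjusted p of 0.05 in Tn, where 0.231% of the 13441 genes tested did. They were 3 higher and 2 lower in Aim2-/-, where 0.134% of all genes were higher and 0.0967% lower. In Treg, 7 of the 9 passed, where 0.219% of 13221 genes did. They were 3 higher and 4 lower, where 0.129% of all genes were higher and 0.0908% lower. The libraries of the genotypes did not overlap for 7 of the 8 genes tested in Tn (6.95% of all genes) and for 8 of the 9 in Treg (2.26%). Because this contrast chose the genes, nothing is read from these counts, and the fold changes are given as a description. In Tn the log2 fold changes of Aim2-/- against WT were -3.00 (SE 0.19) for Rab4a, 1.56 (SE 0.12) for Slc41a3, 1.62 (SE 0.15) for Aldh1l1, 5.74 (SE 0.28) for 5830416I19Rik and -4.74 (SE 0.57) for 4930532G15Rik. Those of Wdfy1 (-0.40, SE 0.12) and Efcab7 (-0.27, SE 0.22) did not pass. In Treg they were -3.23 (SE 0.27) for Rab4a, 1.70 (SE 0.25) for Slc41a3, 2.58 (SE 0.37) for Aldh1l1, -1.61 (SE 0.14) for Wdfy1 and -1.71 (SE 0.16) for Efcab7. Fam20c (-4.14, SE 0.53) and Gm16867 (9.22, SE 0.82) completed the 7 in Treg, and 5830416I19Rik (3.10, SE 0.66) was not called. The latter passed in Treg by DESeq2 and with all 16 libraries in one fit (log2 fold changes 3.20 and 3.10). Genes called in both states by the 8-library fits were Rab4a, Slc41a3 and Aldh1l1. Whether the difference between genotypes itself differed between Tn and Treg was not tested. At the edge of the threshold in Tn were Ppic (log2 fold change 0.85), just inside, and Camk2b (0.99), just outside. In Treg these were Enah (-1.68) and Gm15726 (3.56).

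**Figure D2:**
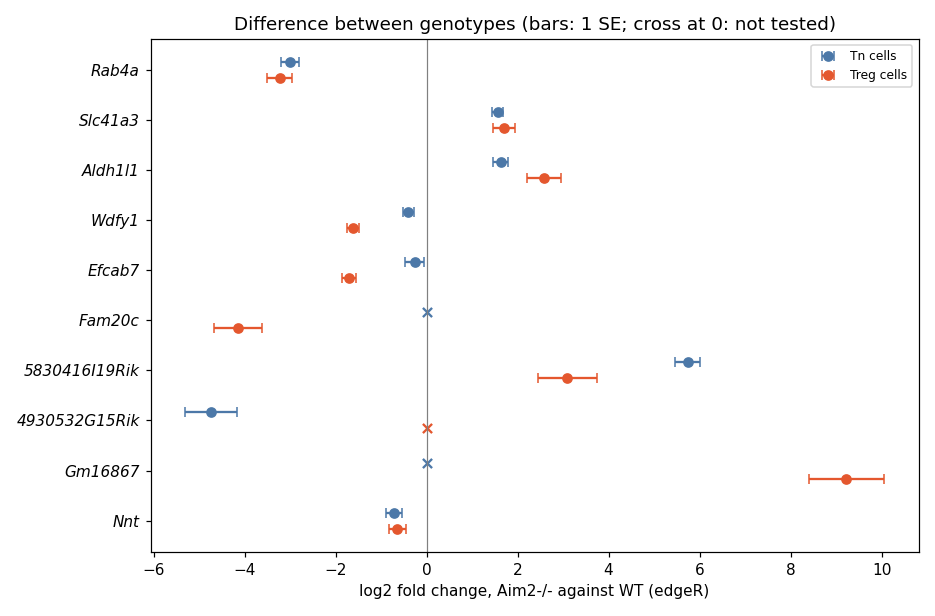
Log2 fold change of Aim2-/- against WT (edgeR, 8 libraries a comparison) for the 10 genes in Tn (blue) and Treg (red) cells, with bars of 1 SE and a cross at 0 where a gene was not tested. Every gene tested in both states keeps its side of 0, and Wdfy1 and Efcab7 lie nearer to 0 in Tn (-0.40 and -0.27) than in Treg (-1.61 and -1.71).

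Several calls in Treg were lost in fits of fewer libraries. With 1 library left out in turn, Rab4a, Wdfy1 and Efcab7 passed in 8 of 8 fits, while Slc41a3 passed in 1 (without Aim2-/- replicate 4; log2 fold changes 1.51 to 1.85 over the 8 fits) and Aldh1l1 in 2 (without WT replicate 1 or Aim2-/- replicate 4; 2.41 to 3.02). Fam20c passed in 4 and did not pass without WT replicate 1, 2 or 3 or Aim2-/- replicate 2 (-4.67 to -3.76). Gm16867 passed in 7 and did not without WT replicate 1 (log2 fold change 10.8 there). In Tn all 5 called genes passed in 8 of 8 such fits. The same libraries chose these genes, so a pass in either state is a description and no support for a difference. In the Tn fits, 5830416I19Rik and 4930532G15Rik passed the filter only through the genotype where they were high. The same held for Aldh1l1, Fam20c and Gm16867 in the Treg fits. Within replicates 3 and 4 alone, none of the 7 genes called in Treg passed (edgeR adjusted p = 0.051 for Rab4a and 0.11 for Wdfy1). Aldh1l1 and Efcab7 did not pass in Treg within replicates 1 and 2 either. In Tn, 4930532G15Rik did not pass within replicates 1 and 2 (edgeR adjusted p = 0.054). By limma-voom with all 8 libraries, Slc41a3 did not pass in Treg.

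Nnt was the exception among the 10, since it was chosen for its known deletion and not for its level here. It was at 14.5, 11.0, 13.3 and 12.3 CPM in WT Tn and at 5.43, 6.65, 9.50 and 9.45 CPM in Aim2-/- Tn. Every WT Tn library was above every Aim2-/- Tn library, as was so for 6.95% of all genes tested in Tn without regard to direction. In Treg cells Nnt was at 18.5, 14.0, 11.8 and 17.6 CPM in WT and at 11.9, 10.9, 9.46 and 7.36 CPM in Aim2-/-, and the groups overlapped through WT replicate 3 and Aim2-/- replicate 1. The log2 fold change of Aim2-/- against WT was -0.72 (SE 0.19) in Tn and -0.65 (SE 0.19) in Treg. Neither passed the test (edgeR, adjusted p = 0.29 in Tn and 0.9994 in Treg). DESeq2 put the Tn difference at -0.73 with an adjusted p of 0.028, and over all alternatives the adjusted p was 0.028 to 0.51 for Tn and 0.21 to 1 for Treg. Within replicates 1 and 2 the Tn difference was -1.07 (SE 0.19), and within replicates 3 and 4 it was -0.45 (SE 0.14). The WT Tn libraries paired in this way across genes. RNA of Nnt was thus present in all 16 libraries at 5.43 CPM or more. The reference lacks the exons that C57BL/6J lacks, so these counts do not show whether a library carried the deletion. Over 5 other genes listed for a lesion in a C57BL/6 substrain (Crb1, Cyfip2, Nlrp12, Dock2 and Mmrn1), 2 were expressed enough to test in each state. Of these, 0 were called between genotypes by edgeR, with a smallest adjusted p of 0.46 in Tn and 0.9994 in Treg. Over all genes, 0.231% were called in Tn and 0.219% in Treg. A lesion need not change the RNA level of its gene, so these 2 genes do not show the substrain of either line.

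Culture was compared with the naïve state within each genotype, a contrast that did not choose the genes, although the same libraries entered their choice. Of the 8 genes tested in WT, 6 changed, where 76.9% of all 13675 genes tested did. In Aim2-/-, 5 of 8 changed, where 79.3% of 13713 did. The groups did not overlap for 6 of the 8 genes in WT and 5 of the 8 in Aim2-/-, against 72.9% and 74.8% of all genes. These shares are near the background, so a change with culture does not set the 10 genes apart. The lists tested differed, since 5830416I19Rik and Gm16867 were under the filter in WT, and Fam20c and 4930532G15Rik in Aim2-/-. In WT, Fam20c, 4930532G15Rik and Aldh1l1, all among the 6, passed the filter only through the group where they were high, which fixed their direction. Aldh1l1 had 17, 8, 9 and 5 counts in the WT Treg libraries. In Aim2-/-, Rab4a, among the 5, had 22, 12, 13 and 8 counts in the Treg libraries and needed the Tn libraries to pass.

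Rab4a, Slc41a3 and Aldh1l1 fell with culture in both genotypes, by edgeR with Benjamini-Hochberg adjustment. The log2 fold change of Treg against Tn for Rab4a was -1.78 (SE 0.17, adjusted p = 6.3e-06) in WT and -1.97 (SE 0.32) in Aim2-/-. No p is given for Rab4a in Aim2-/-, where it needed the Tn libraries to pass the filter. For Slc41a3 it was -2.47 (SE 0.17, adjusted p = 5.6e-07) in WT and -2.30 (SE 0.20, adjusted p = 9.5e-07) in Aim2-/-. For Aldh1l1 it was -3.71 (SE 0.34) in WT and -2.72 (SE 0.20, adjusted p = 2.2e-07) in Aim2-/-. In WT, Aldh1l1 passed the filter only through the Tn libraries, which fixed the direction, so no p is given for it there. The genotype that was higher in Tn cells was also the higher one in Treg cells for each of the 3 genes.

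Efcab7 and Fam20c rose with culture in WT. Efcab7 gained 1.47 on the log2 scale (SE 0.15, edgeR adjusted p = 1.3e-05) in WT, and in Aim2-/- its log2 fold change was 0.06 (SE 0.24, adjusted p = 0.83). Fam20c went from 2 to 319 summed counts in WT, a ratio of 137 (95% exact interval 37.7 to 1139). It passed the filter there only through the WT Treg libraries, which fixed the direction, so no p is given for it. In Aim2-/- it went from 1 to 16 counts, a ratio of 16.4 (interval 2.55 to 689), and was not tested. Wdfy1 had a log2 fold change of 0.24 (SE 0.12, edgeR adjusted p = 0.087) in WT, where it did not pass, and fell by 0.94 (SE 0.15, adjusted p = 0.00015) in Aim2-/-. In WT, Wdfy1 passed at an adjusted p of 0.046 by DESeq2 and of 0.047 without WT Tn replicate 4, with a log2 fold change of 0.33 in the latter. Over all alternatives, this adjusted p ran from 0.0065, within replicates 1 and 2, to 0.57.

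The lincRNA 4930532G15Rik fell with culture in WT, from 187 to 6 summed counts, a ratio of Tn to Treg of 36.2 (95% exact interval 16.3 to 99.9). It passed the filter there only through the WT Tn libraries, which fixed the direction, so no p is given for it. The lincRNA 5830416I19Rik fell in Aim2-/- libraries, its log2 fold change being -2.86 (SE 0.24, edgeR adjusted p = 5.7e-07). In the other genotype each of these lincRNAs was under the filter and was not tested. Gm16867 had a log2 fold change of 1.35 (SE 0.69, adjusted p = 0.097) in Aim2-/- and did not pass. Nnt had log2 fold changes of 0.24 (SE 0.16, adjusted p = 0.19) in WT and 0.34 (SE 0.21, adjusted p = 0.15) in Aim2-/- and passed in neither, while in WT it passed without WT Treg replicate 3 (0.37, adjusted p = 0.046; 0.046 to 0.49 over all alternatives). In Aim2-/- the log2 fold change of Nnt was 0.91 within replicates 1 and 2 (SE 0.18, edgeR adjusted p = 0.0031) and -0.18 within replicates 3 and 4 (SE 0.19, adjusted p = 0.41), the ends of its range over all alternatives. Whether a gene's change with culture differed between the genotypes was not tested, since the genes were chosen on the genotype contrast.

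**Figure D3:**
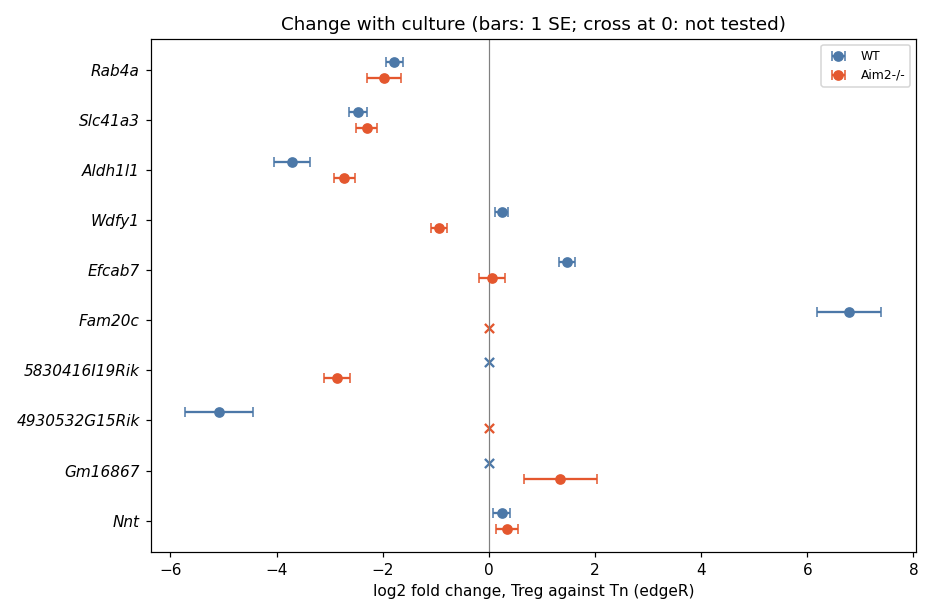
Log2 fold change of Treg against Tn (edgeR, 8 libraries a comparison) for the 10 genes in WT (blue) and Aim2-/- (red), with bars of 1 SE and a cross at 0 where a gene was not tested. Rab4a, Slc41a3 and Aldh1l1 lie below 0 in both genotypes, and Efcab7 lies at 1.47 in WT and 0.06 in Aim2-/-.

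The genes around the 10 were examined to see whether each difference stood alone at its place in the genome. Apart from the 10 themselves, 139 genes tested in Tn and 132 tested in Treg start within 1 Mb of one of them. Of these, 2 were called between genotypes in each state, Entpd4 and Entpd4b, both beside Gm16867. None of the 38 genes tested in Tn around Rab4a, or of the 32 in Treg, was called, and the same held for the neighbours of Wdfy1, Efcab7, Fam20c, 5830416I19Rik, 4930532G15Rik and Nnt in both states, at an adjusted p of 0.05 by edgeR. Aldh1l1 and Slc41a3 were each the only called gene within 1 Mb of the other. Among neighbours that did not pass, and picked after the values were seen, Rell1, which begins 136.1 kb before 5830416I19Rik, had a log2 fold change of 1.19 (SE 0.23, edgeR adjusted p = 0.13) in Tn and 0.66 (SE 0.13, adjusted p = 0.16) in Treg. Gm27177, picked in the same way, begins 218.7 kb from the start of Gm16867, within the span of Entpd4b. Its log2 fold change was 2.22 (SE 0.39, edgeR adjusted p = 0.064) in Tn and 3.05 (SE 0.52, adjusted p = 0.096) in Treg. Whether its reads are separate from those of Entpd4b was not tested. Rell1 and Gm27177 both passed by DESeq2 in both states (adjusted p = 0.00024 and 0.00073 for Rell1, 6.9e-05 and 5.1e-06 for Gm27177), and over all alternatives the largest adjusted p was 0.82 for Rell1 and 0.803 for Gm27177. Also picked after the values were seen was Zcwpw1 near Fam20c (edgeR, 0.54, adjusted p = 0.065 in Tn, and -0.21 in Treg). Near 4930532G15Rik, Bpnt1 was at -0.78 in Tn (edgeR adjusted p = 0.12) and -0.12 in Treg. Lyplal1 there was at 3.70 in Treg (edgeR adjusted p = 0.10). These were not followed in the alternatives.

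**Figure D4:**
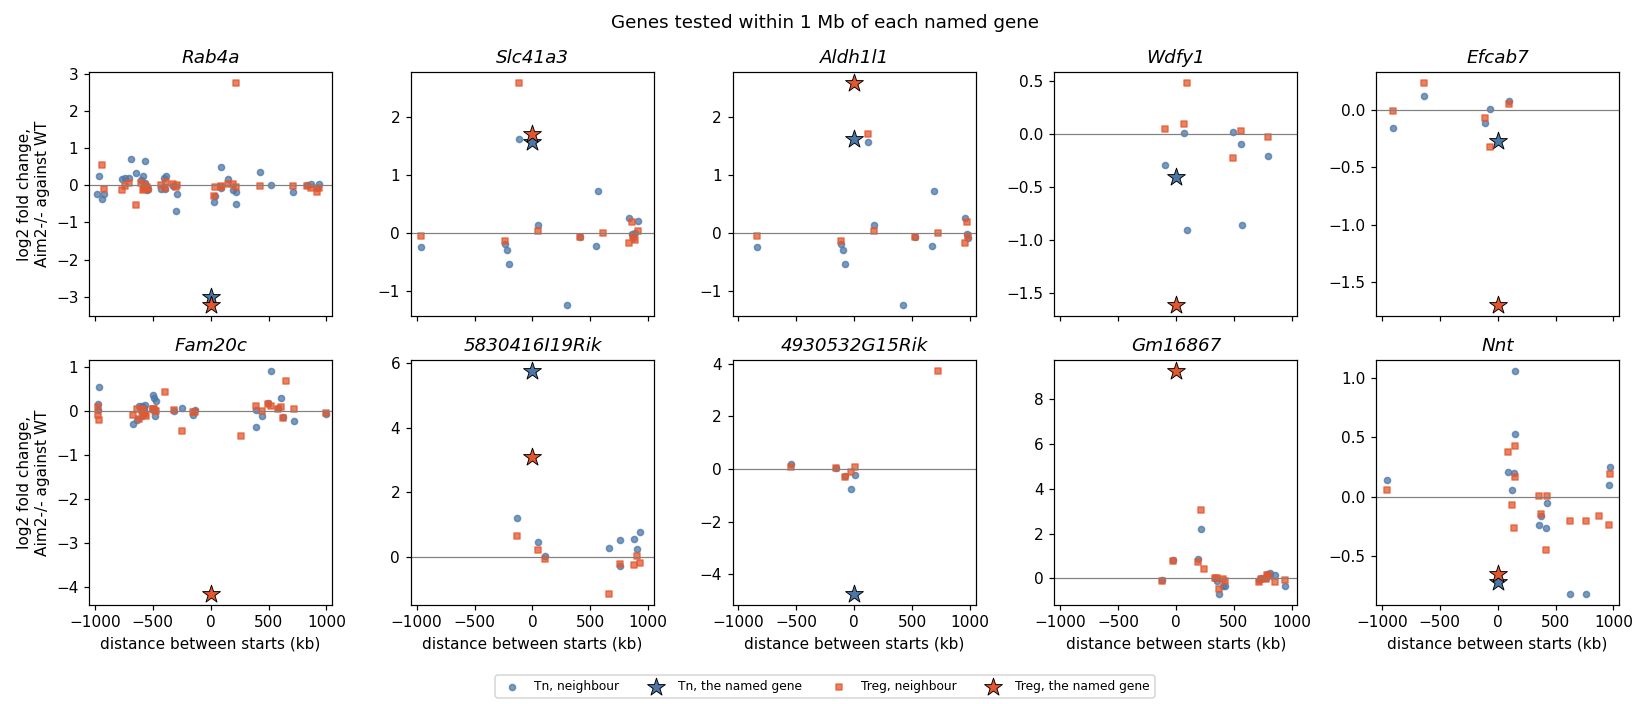
Log2 fold change of Aim2-/- against WT for every gene tested within 1 Mb of each of the 10 genes, against the distance between gene starts in kb (circles Tn, squares Treg), with the named gene as a star at 0 where it was tested. In Treg, Rab4a, Wdfy1, Efcab7, Fam20c and Nnt lie below all the neighbours tested. Aldh1l1 and Slc41a3 each appear beside the other, and Entpd4 and Entpd4b lie between 0.75 and 0.88 in the Gm16867 panel.

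Entpd4, which encodes a nucleoside diphosphatase of the Golgi and lysosome, and its annotated copy Entpd4b were higher in Aim2-/- libraries. Entpd4 (chr14:69337174-69367270) was at 20.1, 19.8, 20.9 and 24.2 CPM in WT Tn and at 36.9, 40.5, 30.4 and 39.7 CPM in Aim2-/- Tn. In Treg cells it was at 21.3, 19.5, 19.3 and 18.8 CPM in WT and at 36.7, 35.6, 36.4 and 28.0 CPM in Aim2-/-. The lowest Aim2-/- libraries of Entpd4 were replicate 3 in Tn and replicate 4 in Treg, which were also the lowest of Gm16867. By edgeR, the log2 fold change of Entpd4 was 0.80 (SE 0.12, adjusted p = 0.018) in Tn and 0.79 (SE 0.10, adjusted p = 0.014) in Treg, and that of Entpd4b was 0.88 (SE 0.12, adjusted p = 0.015) and 0.75 (SE 0.09, adjusted p = 0.014). With 1 library left out in turn, Entpd4 passed in 3 of 8 fits in each state (adjusted p 0.0073 to 0.10 in Tn and 0.0016 to 0.083 in Treg), and its log2 fold change stayed between 0.75 and 0.89. Entpd4b passed in 6 of 8 in Tn and in 3 of 8 in Treg. The deposited counts of Entpd4 and Entpd4b were fractional in 16 of 16 libraries, so reads of each were shared with other genes. How many were shared among Entpd4, Entpd4b and Gm16867 was not tested, and their levels may not be separate measurements.

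**Figure D5:**
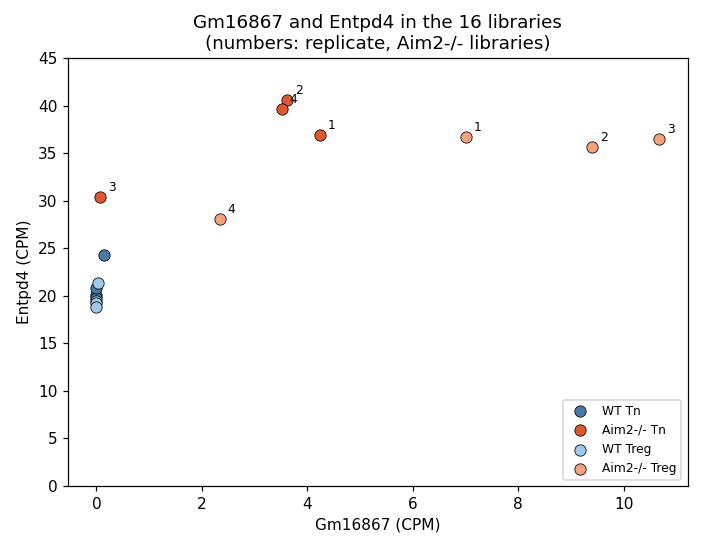
Level of Entpd4 against that of Gm16867 (both in CPM, linear axes) in the 16 libraries, colored by group, with replicate numbers beside the Aim2-/- libraries. The WT libraries lie between 18.8 and 24.2 CPM of Entpd4, and replicate 3 of Aim2-/- Tn and replicate 4 of Aim2-/- Treg lie between them and the other 6 Aim2-/- libraries on the axis of Entpd4.

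For each of the 10 genes, the gene with the most similar pattern was found by Pearson's r over the 16 libraries, on log2 CPM centered within Tn and within Treg. The libraries fall into the 2 genotypes, which any gene that differs between genotypes shares, so r is a description and carries no p. Of the 10 most similar genes, 5 are on chromosome 1. These were Aim2 itself for Rab4a (r = 0.98), Ppox for Wdfy1 (0.89), Adamts4 for Efcab7 (0.94), Enah for Fam20c (0.93) and Ifi204 for 5830416I19Rik (0.97). They start 0.396 to 8.55 Mb from Aim2, leaving out Aim2. The share of chromosome 1 among the genes called between genotypes was not counted, so nothing is read from the 5 of 10. Slc41a3 was most like Dynlt1b (0.96), Aldh1l1 was most like Tmem254c (0.94), and 4930532G15Rik was most like Mpp7 (0.90). Gm16867 was most like Entpd4 (0.96). Nnt was most like the lincRNA 4930480K23Rik (0.87), the lowest of these values.

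Relatives and partners of the named genes were followed as lists, to see whether the differences between genotypes extended to genes that work with them. The lists covered endosomal recycling around RAB4, magnesium transport, folate dehydrogenases, and WDFY proteins with endosomal Toll-like receptor adaptors. Further lists were EFCAB7 partners at the cilium, FAM20 kinases and NADPH metabolism in and outside mitochondria. With the substrain lesions above, they made 8 lists. Of 77 listed entries in the tables, 59 were tested between genotypes in Tn and 65 in Treg, and 0 were called in either state by edgeR, where 0.231% and 0.219% of all genes were, a share at which 0 calls among so few entries is near the background. An unadjusted p under 0.05 was found for 3 entries in Tn and 2 in Treg, against 1389 and 304 genes of the whole tables. The median log2 fold change of a list between genotypes lay between -0.18 (substrain lesions, 2 genes tested) and 0.05 (NADPH metabolism, 12 tested) in Tn, against 0.01 over all genes. In Treg the list medians lay between -0.18 (WDFY proteins and adaptors, 6 tested) and 0.08 (NADPH metabolism). In WT, culture raised 29 and lowered 16 of the 61 listed entries tested, and in Aim2-/- it raised 31 and lowered 15 of 64. The folate dehydrogenases went opposite to Aldh1l1, with 5 of 8 tested higher and 0 lower in WT Treg than in WT Tn (median log2 fold change 1.54, against -0.05 over all genes), and 6 of 9 higher and 0 lower in Aim2-/- (median 1.92, against -0.04). Of the genes of NADPH metabolism, which include cytosolic enzymes and users of NADPH, 10 of 12 rose and 1 fell in each genotype. Nnt was not called. Of the recycling genes, 6 of 16 rose in each genotype, and 7 fell in WT and 6 in Aim2-/-, with Rab4a falling in both. These counts stand beside 37.7% of all genes higher and 39.2% lower with culture in WT, and 39.1% higher and 40.2% lower in Aim2-/-.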

How the data were processed

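Stranded mRNA libraries were sequenced by the authors as single-end reads. STAR aligned the reads to GRCm38, and RSEM then quantified each gene against a GENCODE annotation. Per the submitters' notes the tools include STAR, RSEM and limma, and neither their versions nor the strand setting are given in the sources used here. The values deposited are expected counts per gene, not normalized. They were rounded to whole numbers. CPM values use TMM factors over the 16 libraries. Coordinates came from GENCODE M21 (GRCm38), with an entry for 52489 of 53090 genes (98.9%), and promoters from RefSeq GRCm38.p6.

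Each comparison used its 8 libraries, genes that reached 10 counts in 4 or more of them, and edgeR 4.0.16 (robust quasi-likelihood F test, two-sided, TMM) in R 4.3.3, with Benjamini-Hochberg adjustment over all genes tested and a threshold of 0.05. The fits were checked on simulated counts. The SE was derived from the log2 fold change and F. Reads carried no molecular identifiers, so exact intervals and the floor of 3 counts cover counting error only. No duplicate libraries were found. Distance was taken as the mean chi-square per gene between 2 libraries scaled to their totals. In WT Tn it was 13.5 for replicates 1 and 2 and 11.5 for 3 and 4, against 73.3 to 94.2 across these pairs. Aim2-/- Treg paired in the same way (10.3 and 13.5, against 21.6 to 49.5 across), and the other groups did not. The cause of the pairs was not tested, and libraries within a pair may not be independent.

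The 10 genes and all gene lists were chosen with earlier results of these data known. Some genes of the lists are not reported here. The genes named were the 10, Aim2, the most similar gene of each, called neighbours, called list genes (none) and the genes at the edge of the threshold. Further genes are said to have been picked after their values were seen. Alternatives were DESeq2 1.42.0, RLE factors, limma-voom (limma 3.58.1), other filters, all 16 libraries in one fit, a replicate block, leaving out each library, and replicates 1 and 2 or 3 and 4 alone. Same-numbered libraries did not deviate together throughout, so replicate numbers were not taken as pairs.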

Additional observations from a re-analysis of the deposited data

Results flagged for a closer look

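Of 34 groups of 4 libraries with more than 3 counts for a gene, 3 held a library far from the other 3 by Dixon's ratio, the gap to the nearest library over the range of the group, at its 95% critical value. Chance flags about 1 in 20 groups. Wdfy1 in Aim2-/- Treg replicate 3 was the lowest of its group, at 3.91 CPM against 5.57 to 5.64 CPM, with a ratio of 0.962. Efcab7 in Aim2-/- Treg replicate 2 was the lowest of its group, at 1.33 CPM against 1.93 to 1.96 CPM, with a ratio of 0.952. Gm16867 in WT Tn replicate 4 was the highest of its group, at 0.136 CPM with the other libraries at 0, a ratio of 1.0. With the others at 0 this ratio is 1.0 for any value, so the chance rate does not apply to it. The value stands for 4 counts, close to the floor of 3. All 3 were different libraries.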

How the results depend on the processing

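The number of genes called between genotypes in Tn, 31, was 127 by DESeq2, 49 with no filter on low counts, 18 with at least 10 counts in every library, 50 with all 16 libraries in one fit and 498 within replicates 3 and 4, and it was 21 to 39 with 1 library left out. In Treg, 29 became 52 by DESeq2, 17 with at least 10 counts in every library, 5 within replicates 3 and 4, and 15 to 23 with 1 library left out. The counts for culture stayed within 1.5 times under every alternative. Over the 10 genes, 508 of 549 alternative values kept their direction and side of the threshold, 29 no longer passed, 9 newly passed and 3 reversed. The reversed values were log2 fold changes with culture in Aim2-/-, of results that did not pass with all libraries: Efcab7 at -0.0509 without Aim2-/- Tn replicate 4 (up to 0.2096 with another library left out) and -0.0029 within replicates 1 and 2, and Nnt at -0.1772 within replicates 3 and 4, against 0.34 with all libraries and 0.91 within replicates 1 and 2, where it passed. The causes were not tested. With the replicate number as a block, 29 genes were called in Tn, 41 in Treg, 10355 for culture in WT and 10862 in Aim2-/-, and no call of the 10 genes changed. Of the neighbours Rell1 and Gm27177, Gm27177 passed with the block in both states (edgeR adjusted p = 0.030 and 0.0020) and Rell1 in Treg (0.025). Same-numbered libraries of the genotypes correlated at 0.03 to 0.35 in Tn and -0.02 to 0.49 in Treg, and not every library correlated best with its own number. Depth limits Fam20c, Gm16867 and both lincRNAs, which had under 10 summed counts in some groups.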
